A study of Homo sapiens with 19 samples.

Results

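The exons described here belong to 5 protein kinase genes: MAP3K7 (also called TAK1), MAP4K4, MINK1, MARK2 and MARK3. They were taken by gene symbol, as every event that the 15 rMATS tables of the study list for these genes, together with the AKAP8 eCLIP peaks over the genes. This gave 140 of the 100239 splicing events of the series, 96 of them skipped exons (SE), 37 mutually exclusive exons (MXE) and 7 alternative 3' splice sites (A3SS). MARK3 held 68 of them, MAP4K4 35, MARK2 19, MAP3K7 10 and MINK1 8, and 134 had enough reads to be tested in at least 1 comparison. The cells were HMLE/Twist-ER, immortalized human mammary epithelial cells that carry the transcription factor Twist fused to an estrogen receptor. Without treatment they are epithelial (EPI), and 20 nM tamoxifen in the medium takes them through an epithelial-mesenchymal transition (EMT) to a mesenchymal state (MES). In each state, cells stably expressed from a lentiviral vector either a non-specific shRNA (control) or an shRNA against the RNA-binding protein AKAP8 (knockdown, shAKAP8). Poly(A) RNA was sequenced from 3 EPI control, 3 EPI knockdown, 3 MES control and 2 MES knockdown libraries. The study's methods call these libraries biological replicates, without saying which shRNA was used or how the cultures were separated, and all come from a single engineered cell line.

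MAP3K7 is the kinase that carries signals of TGF-β and inflammatory cytokines to the JNK, p38 and NF-κB pathways, in complexes with the TAB proteins. MAP4K4 and MINK1 are closely related Ste20 kinases that act upstream of JNK and on the Hippo pathway and the cytoskeleton. MARK2 and MARK3, mammalian Par-1 kinases, are activated by LKB1, phosphorylate microtubule-associated proteins and take part in cell polarity. In skipped exons the spliceosome either joins the exon to both neighbours or joins the neighbours directly, and an exon whose length is a multiple of 3 can be left out without shifting the reading frame. Splicing factors such as ESRP1 and ESRP2 in epithelial cells, and QKI and RBFOX2 in mesenchymal cells, are known to set many exon choices of EMT. PSI (percent spliced in) is the share of transcripts that include the segment, here computed for each library from its junction reads, and ∆PSI is the difference between group means in percentage points.

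The results turn on 8 cassette exons, shown because each was called changed in at least 1 comparison. An event was called at an adjusted p (FDR) under 0.05 with an absolute ∆PSI of at least 10 points. The sequences are from GRCh37, 5' to 3' on the coding strand, with the exon in capitals and 20 bases of each flanking intron in lower case.
MARK3 27-nt exon, chr14:103964839-103964865, plus strand: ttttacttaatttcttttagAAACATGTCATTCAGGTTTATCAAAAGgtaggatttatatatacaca
MARK3 45-nt exon, chr14:103966493-103966537, plus strand: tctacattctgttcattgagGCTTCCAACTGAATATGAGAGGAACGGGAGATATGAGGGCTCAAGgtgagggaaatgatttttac
MARK2 162-nt exon, chr11:63671458-63671619, plus strand: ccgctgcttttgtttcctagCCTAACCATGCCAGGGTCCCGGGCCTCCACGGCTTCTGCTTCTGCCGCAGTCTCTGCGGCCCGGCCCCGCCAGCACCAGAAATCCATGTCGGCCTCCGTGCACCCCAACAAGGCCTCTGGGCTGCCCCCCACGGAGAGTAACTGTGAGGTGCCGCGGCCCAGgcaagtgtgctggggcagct
MAP3K7 81-nt exon, chr6:91254271-91254351, minus strand: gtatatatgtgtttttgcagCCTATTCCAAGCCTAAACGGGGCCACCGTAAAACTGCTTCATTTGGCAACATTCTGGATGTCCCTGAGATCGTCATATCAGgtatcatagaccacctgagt
MAP4K4 162-nt exon, chr2:102477287-102477448, plus strand: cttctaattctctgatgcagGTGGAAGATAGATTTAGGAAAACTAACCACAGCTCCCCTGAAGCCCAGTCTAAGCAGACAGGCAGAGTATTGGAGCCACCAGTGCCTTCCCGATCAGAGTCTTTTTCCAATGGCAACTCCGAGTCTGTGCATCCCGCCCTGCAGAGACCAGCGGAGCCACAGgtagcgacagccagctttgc
MAP4K4 9-nt exon, chr2:102484491-102484499, plus strand: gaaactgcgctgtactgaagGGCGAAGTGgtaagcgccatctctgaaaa
MAP4K4 192-nt exon, chr2:102487956-102488147, plus strand: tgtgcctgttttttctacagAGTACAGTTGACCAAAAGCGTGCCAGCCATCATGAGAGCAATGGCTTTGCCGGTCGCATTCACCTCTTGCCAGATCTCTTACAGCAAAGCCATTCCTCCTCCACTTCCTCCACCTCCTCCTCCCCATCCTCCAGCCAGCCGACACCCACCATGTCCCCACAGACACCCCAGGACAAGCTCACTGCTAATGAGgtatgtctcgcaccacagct
MINK1 111-nt exon, chr17:4795697-4795807, plus strand: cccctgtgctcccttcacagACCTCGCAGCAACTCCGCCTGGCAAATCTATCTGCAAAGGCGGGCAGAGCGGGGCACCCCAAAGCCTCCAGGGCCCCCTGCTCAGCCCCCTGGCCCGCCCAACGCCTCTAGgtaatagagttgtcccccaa

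All 8 exons are protein-coding in Gencode v44 (lifted to GRCh37), and all 8 have lengths that are multiples of 3. Of the 39005 different exons tested for EMT in control cells, 42.8% had such a length, and of the 594 called there 61.8% did. The exons also included very short ones, as 2 of the 8 were at most 30 nt long, against 1.29% of all tested exons and 5.72% of those called in EMT of control cells. The MAP3K7 exon is exon 12 in the 2 coding transcripts that hold it, and 6 of the 8 coding transcripts that span it skip it. For the MARK3 27-nt exon, 12 coding transcripts hold it and 13 skip it, and for the 45-nt exon the counts are 13 and 12. Each exon starts after AG, and 7 of the 8 end before GT, the exception being the MARK2 exon, which is followed by GC.

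The 11 libraries held 21198882 to 28261544 junction reads each in the 33107 SE events that all 3 comparisons share. AKAP8 itself, the target of the shRNA, had 267 ± 37.9 (SD, n = 3) scaled junction reads in EPI control and 115 ± 14.0 (n = 3) in EPI knockdown libraries, and 276 ± 96.5 (n = 3) and 115 ± 9.65 (n = 2) in MES. Its log2 fold change was -1.21 ± 0.25 in EPI (adjusted p = 0.0664) and -1.20 ± 0.28 in MES (adjusted p = 0.0322, limma). Of the epithelial markers with a value, all 5 (CDH1, ESRP1, ESRP2, OCLN and JUP) were lower in MES control than in EPI control, and all 8 mesenchymal markers with a value (VIM, FN1, ZEB1, ZEB2, QKI, FBLN5, COL6A1 and SPARC) were higher, each passing the test. Comparisons share libraries: the knockdown comparison in EPI and EMT in control cells use the same EPI controls, and the knockdown comparison in MES, whose tables list only the first and second MES controls, shares these with EMT in control cells. EMT in knockdown cells shares no library with EMT in control cells.

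The MARK3 27-nt exon had the largest ∆PSI in EMT among the 8 exons, and it was the one kinase exon called after AKAP8 knockdown. Its PSI, measured between exons ending at 103958371 and starting at 103969219, was 6.42, 5.56 and 4.35% in the EPI control libraries and 24.7, 13.7 and 15.5% in the EPI knockdown libraries. In MES it was 60.3, 52.3 and 52.9% in control and 62.2 and 60.6% in knockdown libraries. The groups did not overlap in any of the 4 comparisons, with the libraries ordered EPI control, EPI knockdown, MES control, MES knockdown. EMT raised the exon by 49.7 ± 2.65 points in control cells (± is the SE from the spread between libraries, here and below, adjusted p = 2.03e-47) and by 43.4 ± 3.50 points in knockdown cells (adjusted p = 1.84e-14). Knockdown in EPI raised it by 12.5 ± 3.46 points (adjusted p = 8.83e-06), of which the highest library, the first listed, carried part: without it the difference was 9.18 points (adjusted p = 0.0115), under the threshold of 10 points. By limma on the logit of PSI, the other test tried, it was not called (adjusted p = 0.902). In MES the difference after knockdown was 5.07 ± 4.10 points (adjusted p = 0.807). The junction reads behind each PSI numbered 283 to 464.

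Measured between the same flanking exons, the neighbouring MARK3 45-nt exon was also rare in EPI and more frequent in MES. PSI was 3.75, 3.37 and 3.18% in EPI control, 9.20, 4.54 and 4.66% in EPI knockdown, 25.7, 23.8 and 23.9% in MES control and 24.5 and 25.6% in MES knockdown libraries. It rose in EMT by 21.0 ± 0.66 points in control cells (adjusted p = 8.9e-15) and by 18.9 ± 1.63 points in knockdown cells (adjusted p = 3.27e-05). The knockdown differences, 2.71 ± 1.54 points in EPI and 0.26 ± 1.12 points in MES, were not called. In transcripts joined to the 27-nt exon upstream, PSI of the 45-nt exon was 49.2, 39.8 and 46.4% in EPI control libraries. It was 48.6, 54.7 and 46.4% in MES control libraries, a difference of 4.76 ± 3.75 points that was not called (adjusted p = 0.768). Knockdown libraries stood at 45.4, 41.4 and 43.5% in EPI and 42.1 and 46.4% in MES. This event rested on 27 to 331 reads a library.

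In transcripts joined to the 45-nt exon downstream, PSI of the 27-nt exon was 68.5, 57.6 and 55.6% in EPI control libraries, far above the values for the direct join to the next exon given above. The same measure was 85.4, 80.7 and 88.5% in EPI knockdown, 94.9, 94.6 and 93.4% in MES control and 95.7 and 94.0% in MES knockdown libraries. It rose by 33.7 ± 4.04 points in EMT of control cells (adjusted p = 2.23e-05), while the 24.3 ± 4.61 points in EPI after knockdown were not called (adjusted p = 0.657), although no knockdown library fell within the range of the controls. This event rested on 31 to 229 reads a library. Of the MXE events of MARK3, 4 were also called in EMT of control cells, and all 4 share at least 1 junction with the called SE events of these 2 exons, so they are no separate evidence. In one of them a 258-nt exon at chr14:103958114-103958371 was set against the 27-nt exon, and its share fell by 14.4 ± 1.65 points in control cells (adjusted p = 1.59e-10) and by 12.6 ± 2.54 points in knockdown cells (adjusted p = 0.00429). The second of these calls was lost without the third-listed EPI knockdown or the second MES knockdown library, and with 1 dispersion prior for all events (adjusted p between 0.0557 and 0.15). Measured as a skipped exon before the 27-nt exon, the 258-nt exon was included almost always. Its mean PSI there was 100% in EPI control, 99.87% in EPI knockdown, 99.36% in MES control and 99.05% in MES knockdown libraries. The fall of its share in the MXE event is therefore no measure of its skipping.

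**Figure D1:**
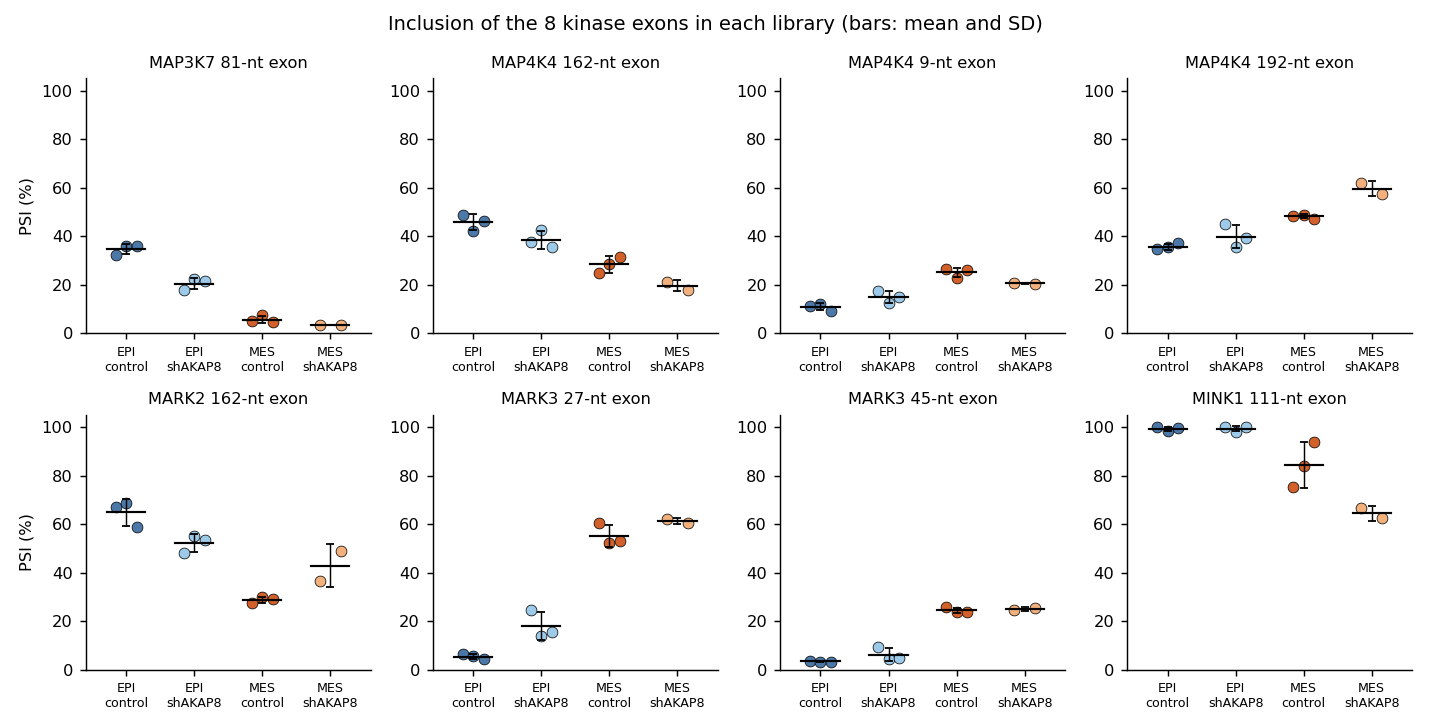
PSI in percent (y axis) of the 8 kinase exons in each library (points) of the 4 groups (x axis), with bars for the mean and SD of a group. The MARK3 27-nt exon lies between 4.35 and 6.42% in EPI control and between 52.3 and 62.2% in all MES libraries, while the MAP3K7 81-nt exon lies between 32.1 and 35.9% in EPI control and between 3.44 and 7.36% in all MES libraries.

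MARK2, the paralog of MARK3, had 1 exon called in EMT, a 162-nt exon that fell in control cells. PSI was 67.2, 68.8 and 58.7% in EPI control, 48.2, 55.0 and 53.6% in EPI knockdown, 27.6, 30.0 and 29.0% in MES control and 36.7 and 49.1% in MES knockdown libraries. The exon fell by 36.0 ± 3.23 points in EMT of control cells (adjusted p = 4.65e-07), and all 3 MES controls lay below all other libraries. In knockdown cells the MES to EPI difference was -9.30 ± 6.52 points (adjusted p = 0.81), the 2 MES knockdown libraries overlapping the EPI knockdown range. The knockdown minus control difference was -12.7 ± 3.78 points in EPI (adjusted p = 0.657) and 14.1 ± 6.29 points in MES (adjusted p = 0.807), neither of them called, with groups that did not overlap in either state. Reads numbered 67 to 233 a library, the fewest among the 8 exons.

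MARK2 also holds a 27-nt and a 45-nt exon, named here after their values were seen because they match the lengths of the MARK3 pair. They are shown with the same marking for comparison with the MARK3 exons above.
MARK2 27-nt exon, chr11:63673560-63673586, plus strand: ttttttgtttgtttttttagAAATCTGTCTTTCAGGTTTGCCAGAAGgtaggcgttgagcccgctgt
MARK2 45-nt exon, chr11:63675732-63675776, plus strand: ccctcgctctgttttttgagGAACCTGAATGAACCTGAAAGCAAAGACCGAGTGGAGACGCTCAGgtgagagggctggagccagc
The 27-nt exons of MARK2 and MARK3 were identical at 21 of 27 bases and the 45-nt exons at 22 of 45. The MARK2 27-nt exon stood at 17.6, 11.1 and 24.4% in EPI control and 14.9, 3.84 and 5.98% in MES control libraries, a difference of -9.47 ± 5.10 points (adjusted p = 0.372) with overlapping groups. Joined to the exon ending at 63672515, the MARK2 45-nt exon was included at 100% in the 3 EPI control libraries. It stood there at 95.5, 93.8 and 96.9% in the MES controls (-4.58 ± 0.91 points, adjusted p = 0.0391, under the size threshold), and at 90.4 and 84.1% in the MES knockdown libraries. Joined to the 27-nt exon upstream, the 45-nt exon stood at 91.8, 92.5 and 86.9% in EPI control libraries. In that event it was at 88.65, 93.6 and 98.2% in MES control libraries (3.07 ± 3.26 points, adjusted p = 0.688) and at 96.2 and 96.8% in MES knockdown libraries. The values of the 27-nt exon above are for that exon joined to the 45-nt exon. Joined to the next exon, starting at 63676349, the 27-nt exon stood at 100% in the 3 EPI control libraries and 44.2, 86.4 and 81.3% in EPI knockdown. It stood at 56.9, 28.4 and 37.3% in MES control and 25.3 and 8.09% in MES knockdown libraries. The groups did not overlap in any of the 4 comparisons, but with only 7 to 20 reads a library this event had too few to be tested. Among the tested events of the MARK2 pair none was called in EMT, in control or in knockdown cells.

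**Figure D2:**
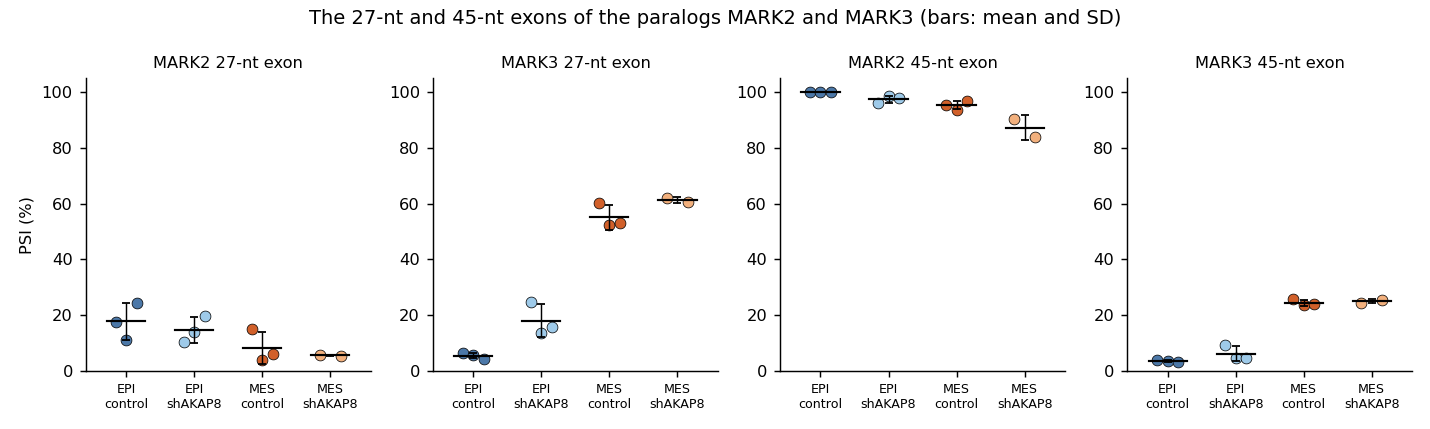
PSI in percent (y axis) of the 27-nt and 45-nt exons of MARK2 and MARK3 in each library (points) of the 4 groups (x axis), with bars for mean and SD. Each exon is shown by its event with the most reads. In these events the 2 MARK3 exons are higher in every MES library than in every EPI library. The MARK2 45-nt exon, joined to the exon ending at 63672515, stays at 84.1% or above in all 11 libraries.

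The 81-nt exon of MAP3K7 was rare in MES. PSI was 32.1, 35.9 and 35.9% in EPI control, 17.7, 22.2 and 21.3% in EPI knockdown, 4.76, 7.36 and 4.61% in MES control and 3.46 and 3.44% in MES knockdown libraries. No group overlapped another, and the order was the reverse of that of the MARK3 27-nt exon. The exon fell by 29.1 ± 1.56 points in EMT of control cells (adjusted p = 1.89e-18). In knockdown cells it fell by 17.0 ± 1.37 points (adjusted p = 0.000102), a call lost without the second MES knockdown library (adjusted p = 0.0667). The difference after knockdown was -14.2 ± 1.87 points in EPI, with an adjusted p of 0.174 that did not pass, and -2.62 ± 1.30 points in MES (adjusted p = 0.807). The EPI value depended on the dispersion model: with 1 prior for all events it passed at an adjusted p of 5.96e-05. Each PSI rested on 148 to 330 reads, and no other event of MAP3K7 was called in any comparison.

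In MAP4K4, EMT of control cells moved 1 exon down and 2 exons up. The 162-nt exon fell in EMT by 17.5 ± 2.72 points in control cells (adjusted p = 1.16e-05). In knockdown cells it fell by 18.8 ± 2.63 points (adjusted p = 0.000977), a call that was lost without the second MES knockdown library (adjusted p = 0.332). Its PSI was 48.8, 42.3 and 46.4% in EPI control, 37.5, 42.3 and 35.4% in EPI knockdown, 24.7, 28.6 and 31.5% in MES control and 21.2 and 17.9% in MES knockdown libraries. The knockdown minus control difference was -7.40 ± 2.80 points in EPI and -7.08 ± 2.54 points in MES, and neither was called (adjusted p = 0.657 and 0.807).

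The 192-nt exon of MAP4K4 rose in EMT instead. It stood at 34.6, 35.5 and 36.95% in EPI control, 44.9, 35.3 and 39.1% in EPI knockdown, 48.4, 48.7 and 47.2% in MES control and 61.7 and 57.4% in MES knockdown libraries. The rise was 12.5 ± 0.85 points in control cells (adjusted p = 5.09e-05) and 19.7 ± 3.54 points in knockdown cells (adjusted p = 1.76e-05). In MES the knockdown libraries lay 10.97 ± 2.18 points above the controls without being called (adjusted p = 0.585, and 0.000541 with 1 dispersion prior for all events). This was the most deeply covered of the 8 exons, with 959 to 1763 reads a library.

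The 9-nt exon of MAP4K4 showed smaller values, 11.3, 11.9 and 9.13% in EPI control, 17.3, 12.5 and 14.7% in EPI knockdown, 26.4, 22.9 and 25.9% in MES control and 20.6 and 20.4% in MES knockdown libraries. It rose by 14.3 ± 1.38 points in EMT of control cells (adjusted p = 5.7e-10), and the difference in knockdown cells, 5.65 ± 1.39 points, was not called (adjusted p = 0.449). Knockdown libraries lay 4.04 ± 1.63 points above the controls in EPI and below them in MES, with a difference of -4.18 ± 1.77 points, neither called. A 93-nt part of the exon ending at chr2:102476326, selected by the more upstream of 2 alternative 3' splice sites, was used at 53.6, 55.6 and 59.3% in EPI knockdown and at 45.9 and 41.6% in MES knockdown libraries. Control libraries used it at 60.1, 51.9 and 59.3% in EPI and 54.8, 54.8 and 51.9% in MES. It fell by 12.5 ± 2.71 points in EMT of knockdown cells (adjusted p = 0.00881), and the corresponding difference in control cells was -3.26 ± 2.80 points (adjusted p = 0.737). The call in knockdown cells was lost without either MES knockdown library or the third EPI knockdown library (adjusted p between 0.0884 and 0.551). The values given are for the event of this site pair with the most reads. In its other listed events the more upstream site was used at 96.7% or more in every library with a value, and none of these was called.

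MINK1, the relative of MAP4K4, included its 111-nt exon almost always in EPI and less in MES. PSI was 100, 98.3 and 99.5% in EPI control, 100, 98.1 and 100% in EPI knockdown, 75.2, 84.2 and 94.0% in MES control and 66.7 and 62.4% in MES knockdown libraries. The exon fell by 14.8 ± 5.45 points in EMT of control cells (adjusted p = 1.7e-07). In knockdown cells it fell by 34.8 ± 2.23 points (adjusted p = 2.17e-15). The MES controls spread widely, and both MES knockdown libraries lay below them. The difference after knockdown in MES, -15.2 ± 4.97 points against the first and second controls, was not called (adjusted p = 0.807). In EPI the difference was 0.08 ± 0.80 points.

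Across all 5 genes, 13 of 105 tested events were called in EMT of control cells, 6 with a higher and 7 with a lower PSI in MES. Of SE events alone this was 9 of 73, 5 higher and 4 lower, against 1.3% of all 49330 SE events tested. Of MXE events it was 4 of 26, 1 higher and 3 lower, against 2.61% of all 12148. In these called MXE events, all of MARK3, PSI is the share of the first exon against the second. EMT in knockdown cells gave 8 of 78, namely 6 of 59 SE events (1.24% of all 31496), 1 of 12 MXE events (0.775% of all 5291) and 1 of 7 A3SS events (1.24% of all 2260). Many of these events share an exon or a junction, so they are not independent of each other. Knockdown in EPI gave 1 of 76 SE events, where 0.0504% of all 47579 were called, and knockdown in MES 0 of 67, where 0.0662% of all 43832 were called (quasi-binomial test). In MES, 4 events of the 5 genes had an unadjusted p under 0.05 with a difference of at least 10 points, limma on the logit of PSI called 0, and the quasi-binomial test with 1 dispersion prior for all events called 3. With limma on the logit of PSI, 8 events were called in EMT of control cells, 0 in EMT of knockdown cells and 0 in EPI after knockdown. Among the 8 exons, those of MAP3K7 (adjusted p = 0.0223), MINK1 and the MARK3 pair kept their call in EMT of control cells under that test, and the 3 exons of MAP4K4 and that of MARK2 lost it (adjusted p between 0.132 and 0.683). For the unadjusted threshold, the 1 prior for all events and limma on the logit, the share of all events was not counted.

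**Figure D3:**
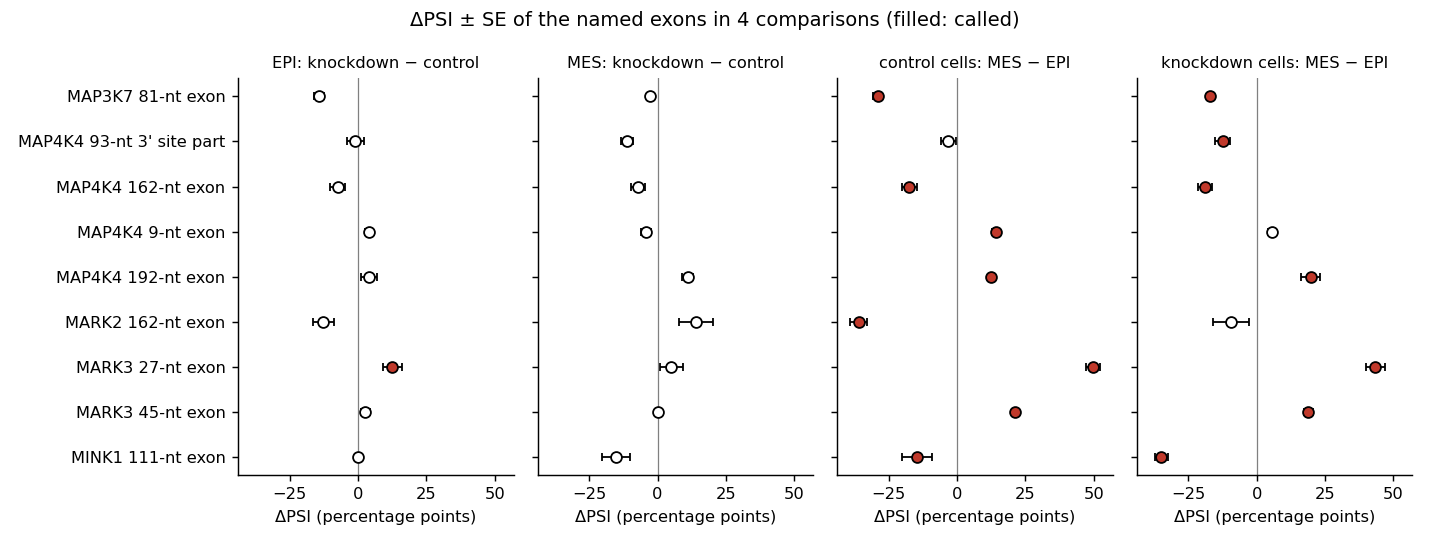
∆PSI in percentage points (x axis) with its SE for the 8 exons and the 93-nt alternative 3' splice site part of MAP4K4 (y axis) in the 4 comparisons, filled where called. In the plot of EMT in control cells 8 of the 9 points are filled and in that of knockdown cells 7, whereas knockdown has 1 filled point in EPI, the MARK3 27-nt exon at 12.5, and none in MES.

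Whether knockdown acted differently in the 2 states was tested as an interaction over the 11 libraries, on the logit scale. Its p is therefore no test of the difference in points given beside it. That difference uses all 3 MES controls, whereas the MES knockdown effects given above use the first and second. It thus need not equal the gap between the effects given for the 2 states. Of SE events of all genes, 3 of 30197 (0.00993%) were called. Of the 50 events of the kinases tested in this way none was called, and 2 had an unadjusted p under 0.05 with a difference of at least 10 points (quasi-binomial test). They were the MARK2 162-nt exon (unadjusted p = 0.00737) and a MINK1 116-nt exon described with the peaks below. The latter differed by -11.48 points (unadjusted p = 0.000294, adjusted p = 0.467). The share of all events that pass the unadjusted threshold was not counted. The MARK2 162-nt exon had the largest difference between states among the 8 exons, 26.7 points (MES minus EPI), with adjusted p = 0.735. For the MINK1 111-nt exon it was -20.0 points (adjusted p = 0.757) and for the MAP3K7 exon 12.1 points (adjusted p = 0.904). The MARK3 27-nt exon (-6.35 points) and the MAP4K4 9-nt exon (-8.62 points) both had an adjusted p of 0.735.

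Of the 5 genes, MINK1 alone was called for its level, in EMT of control cells. Gene levels were approximated by summing the junction reads of a gene's SE events, a measure that shifts with splicing and counts a read again in each event it supports, so levels of different genes are not compared. In bulk RNA, fewer expressing cells and less RNA per cell cannot be told apart. MINK1 had 2109, 2155 and 1699 scaled reads in EPI control and 953, 820 and 782 in MES control libraries, a log2 fold change of -1.22 ± 0.18 (adjusted p = 0.000397). In knockdown cells it had 2057, 1661 and 1500 scaled reads in EPI and 979 and 1435 in MES (-0.54 ± 0.21, adjusted p = 0.0813). For all genes the called share was 12.5% in EMT of control cells and 12.3% in EMT of knockdown cells, 0.189% after knockdown in EPI and 2.27% in MES, of 9017 genes each.

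MARK3 kept a narrow spread, 12160 to 13010 scaled reads in EPI control and 9369 to 10340 in MES control, and its log2 fold change of -0.37 ± 0.12 had an adjusted p of 0.0414 below the fold threshold. MARK2 stood at 778, 718 and 647 in MES control and at 355 and 527 in MES knockdown libraries (-0.72 ± 0.22, adjusted p = 0.078). The other fold changes of the 5 genes lay between -0.64 and 0.48 on the log2 scale and were not called. In EMT of control cells, in which its exon fell, MAP3K7 differed in level by -0.09 ± 0.20 (adjusted p = 0.773).

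**Figure D4:**
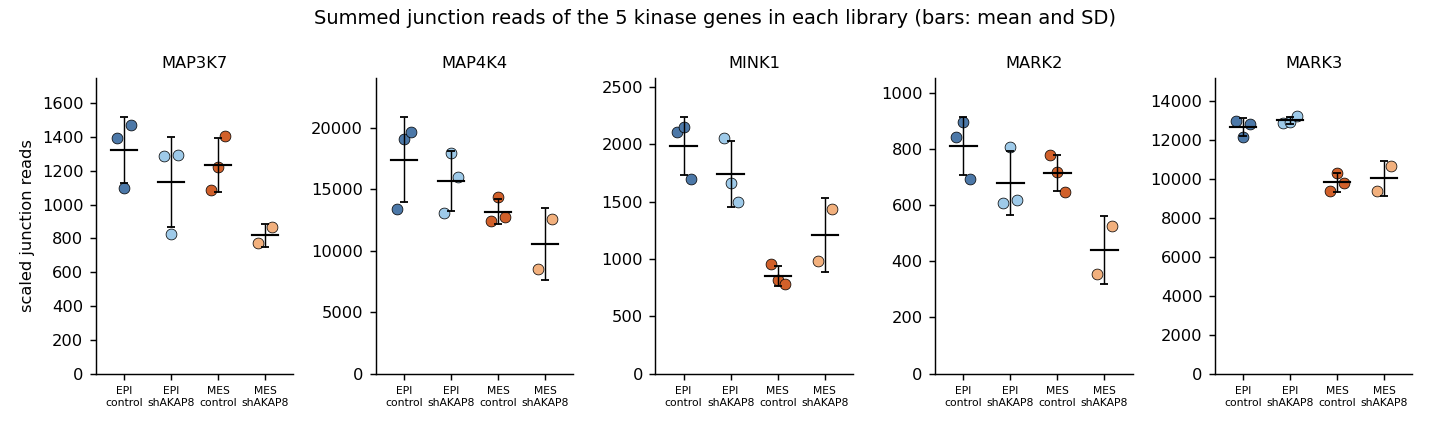
Scaled junction reads (y axis, from 0, a separate scale for each gene) of the 5 genes in each library (points) of the 4 groups (x axis), with bars for mean and SD. MINK1 falls from 1699 to 2155 in EPI control to 782 to 953 in MES control libraries, while the groups of MAP3K7 overlap between these states.

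Other genes of the pathways were followed in 3 lists that leave out the 5 kinases themselves. Of the TAK1 list (TAB and TRAF proteins, IRAK1, MAP2Ks, MAPKs, NLK, IKK subunits and TGF-β receptors), 16 of 19 genes had a level, and 2 fell in EMT of control cells: MAP2K3, a kinase of p38, by 1.09 ± 0.23 on the log2 scale (adjusted p = 0.00435), and TAB3, an adaptor of TAK1, by 1.14 ± 0.20 (adjusted p = 0.00141). These 2 of 16 are the same share as the 12.5% called among all genes. Both also fell in EMT of knockdown cells, by 1.28 and 1.24, and none rose in either. The median log2 fold change of the list in control cells was -0.15, against 0.01 for all genes. MAP2K7, a kinase of JNK, rose by 1.19 ± 0.21 in MES after knockdown (adjusted p = 0.00962), the one change of the 3 lists in a knockdown comparison.

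Of 83 SE events of the TAK1 list in EMT of control cells 1 was called, a 48-nt exon of MAP2K7 at chr19:7970693-7970740. Its PSI was 15.9, 8.13 and 19.5% in EPI control and 71.3, 47.5 and 93.4% in MES control libraries (56.3 points, adjusted p = 3.56e-05), and it rose by 54.7 points in knockdown cells too (adjusted p = 6.93e-06). It rested on 33.3 reads a library on average in control cells and 60.4 in knockdown cells. In EMT of knockdown cells 2 of 53 were called, that exon and one of IKBKB, a catalytic subunit of IKK, which fell by 30.3 points (adjusted p = 0.0199). The share of called events of the list was 1.2 and 3.77%, beside the shares of all SE events given above. No SE event of any of the 3 lists was called after knockdown in EPI or MES by the quasi-binomial test. At an unadjusted p under 0.05 and 10 points, 1 event of the TAK1 list passed in MES and 1 of the MARK and LKB1 list in EPI. The share of all events passing at that threshold was not counted.

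Among the list of Ste20-family and Hippo pathway genes, 18 of 21 genes had a level, and STK3 (MST2, a core Hippo kinase) fell by 1.002 ± 0.20 in EMT of control cells (adjusted p = 0.00259) and by 1.01 ± 0.22 in knockdown cells, in which TAOK2 rose by 1.03 ± 0.23 (adjusted p = 0.006). A 95-nt exon of LATS1, the Hippo kinase that phosphorylates YAP, was the one called of 86 SE events, at 1.74, 5.39 and 6.13% in EPI control and 27.9, 18.6 and 8.01% in MES control libraries (13.8 points, adjusted p = 0.0257). This share of 1.16% lies under the 1.3% called among all SE events. It was also the one called of 60 in knockdown cells (18.9 points, adjusted p = 0.00518). In the MARK and LKB1 list, 14 of 20 genes had a level. In EMT of control cells 3 of these 14 and 1 of the 18 above were called, where 12.5% of all genes were. STRADB, a pseudokinase partner of LKB1, rose by 1.23 ± 0.16 and BRSK1 by 1.35 ± 0.45 in EMT of control cells, and MARK1, another Par-1 kinase, fell by 1.31 ± 0.26. In knockdown cells STRADB rose by 1.22 ± 0.18, and MARK1 and MAP2 fell by 1.14 ± 0.29 and 1.22 ± 0.39. None of 128 SE events of this list was called in EMT of control cells (quasi-binomial test, 2 at an unadjusted p under 0.05 and 10 points) and 1 of 73 in knockdown cells, an exon of MELK that fell by 11.7 points (adjusted p = 0.00354). The lists' median log2 fold changes in EMT of control cells were 0.01 for the Ste20 and Hippo list and 0.22 for the MARK and LKB1 list, beside 0.01 for all genes.

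AKAP8 binding was measured by eCLIP, in which RNA crosslinked to AKAP8 is sequenced and set against a size-matched input, in 2 replicates per state that the authors merged into 1 peak list of each state. The EPI list holds 24637 peaks and the MES list 30390, in both cases more than the study counts as high-confidence binding sites. Among the 5 genes, MINK1 had 10 EPI peaks at 6 separate places and 1 MES peak, MARK2 had 1 MES peak, and MAP3K7, MAP4K4 and MARK3 had none in either list. Of 7800 genes with a tested exon, 23.3% had at least 1 peak on their strand in EPI and 15.9% in MES, and 5.09% had 10 or more in EPI. All 12 peaks lie in introns of the coding transcripts. MINK1 also had more junction reads in EPI than in MES control libraries, as given above, and the part of RNA level in the number of peaks was not tested.

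The strongest MINK1 peaks and the MARK2 peak are shown, as the peaks that these genes have in the lists. The 2 MES peaks do not reach the study's cutoff for high-confidence binding. Their −log10 adjusted p, as the authors give it, is 1.38 in MINK1 and 2.52 in MARK2. For the 2 EPI peaks shown it is 8.03 and 7.8, and these pass that cutoff. Sequences are from GRCh37, 5' to 3' on the plus strand, in lower case with each run of at least 3 G in capitals.
MINK1 EPI peak, chr17:4782538-4782602, log2 over input 4.69: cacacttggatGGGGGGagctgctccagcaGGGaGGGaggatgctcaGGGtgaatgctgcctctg
MINK1 EPI peak, chr17:4763257-4763324, log2 over input 4.67: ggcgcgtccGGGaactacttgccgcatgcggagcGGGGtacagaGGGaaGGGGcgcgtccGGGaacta
MINK1 MES peak, chr17:4782541-4782590, log2 over input 1.70: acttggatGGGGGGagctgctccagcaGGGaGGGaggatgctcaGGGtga
MARK2 MES peak, chr11:63608816-63608921, log2 over input 2.22: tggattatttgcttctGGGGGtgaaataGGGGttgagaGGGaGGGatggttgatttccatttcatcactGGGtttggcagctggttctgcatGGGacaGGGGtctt
The first 2 hold GGG at 7 starting positions each (overlaps counted), the MES peak of MINK1 at 7 and the MARK2 peak at 11. Of the 10 EPI peaks of MINK1, 9 hold the letters GGG at least once, and their log2 over input runs from 2.73 to 4.69, where the median of all EPI peaks is 3.67. The MES peak lies inside the strongest EPI peak, which the list gives in 2 versions, and its value of 1.70 is under the median of 3.36 of the MES list.

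No peak lay within 1000 nt of any of the 8 exons in either state. The nearest to the MINK1 111-nt exon were 13095 nt away in EPI and 13107 nt in MES, inside the gene. For the MARK2 162-nt exon the MES peak of the gene was 62537 nt away. Peaks nearest to the MARK3 exons lay in TRMT61A, beyond the end of MARK3. Among all tested exons 3.24% had a peak within 1000 nt in EPI and 2.27% in MES. Of the 55 tested cassette exons of the 5 genes, 2 lay within 1000 nt of an EPI peak, both in MINK1, and 1 lay within 500 nt. Near the MES peaks 1 exon lay within 1000 nt and 0 within 500 nt. The 2 exons near EPI peaks are named here for that position, after their values were seen. One is a 66-nt exon at chr17:4781612-4781677 with PSI between 99.2 and 100% in all libraries. The other is a 116-nt exon at chr17:4762508-4762623, 634 nt before the peak cluster with log2 4.67, whose PSI was 4.67, 2.14 and 9.14% in EPI control, 8.22, 4.42 and 7.61% in EPI knockdown, 14.4, 15.1 and 14.5% in MES control and 7.14 and 2.09% in MES knockdown libraries. It was 9.35 ± 2.06 points higher in MES than in EPI control cells (adjusted p = 0.00622, under the size threshold), and after knockdown in MES the difference of -10.2 ± 2.55 points was not called (adjusted p = 0.551).

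**Figure D5:**
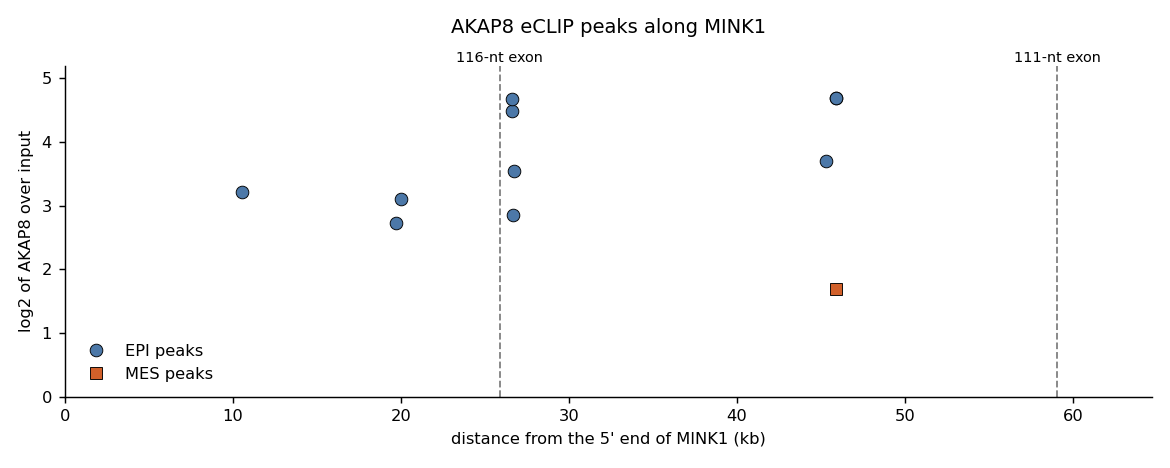
Log2 of AKAP8 over input (y axis) of each peak of MINK1 in the EPI list (circles) and the MES list (square) against the distance from the 5' end of the gene in kb (x axis), with dashed lines at the 116-nt and 111-nt exons. The EPI peaks lie between 2.73 and 4.69 upstream of the 111-nt exon, and the single MES peak at 1.70 lies under the strongest of them.

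The intron flanks of the 8 exons were searched for 3 short motifs, 250 nt on either side on the coding strand: GGG, TGCATG (bound by RBFOX proteins) and ACTAA (bound by QKI). Where an intron is shorter than 250 nt the window runs into the next exon, which applies to both sides of the MINK1 exon. TGCATG occurred 3 times upstream and 1 time downstream of the MAP3K7 exon, and of all 39005 tested exons 6.9% had it upstream and 7.3% downstream. The nearest copy upstream, 26 nt before the exon, and one of the 2 farther ones, 112 nt before it, are shown with the motif in capitals.
MAP3K7 intron, chr6:91254366-91254395, minus strand: tttgtggttgttTGCATGtatactgtatat
MAP3K7 intron, chr6:91254452-91254481, minus strand: tgcatgccattcTGCATGaaatgttattaa
The MARK3 27-nt exon had TGCATG 1 time downstream and ACTAA 2 times downstream, 101 and 120 nt after its end, while 17.5% of all tested exons had ACTAA in that window.
MARK3 intron, chr14:103964955-103964983, plus strand: ttttccttataaACTAAactttctgctga
MARK3 intron, chr14:103964974-103965002, plus strand: tttctgctgataACTAAatacttaattcc
ACTAA was also found on both sides of the MAP4K4 162-nt exon and after the 9-nt exon, and TGCATG after the 192-nt exon. GGG was found 18 times before and 3 times after the MINK1 exon, 1 and 8 times around the MARK2 exon, and 0 and 2 times around the MAP3K7 exon, and 84.3% and 86.2% of all tested exons hold it upstream and downstream. QKI had 1080 ± 135 (SD, n = 3) scaled reads in EPI control and 2243 ± 114 (n = 3) in MES control libraries, and ESRP1 3351 ± 276.5 (n = 3) and 215 ± 86.3 (n = 3). Their part in the changes of these exons was not tested.

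For each of the 8 exons, the exons of other genes with the most similar PSI over the 11 libraries were sought among 30134 SE events, by the root mean square difference in points. The MARK3 27-nt exon was closest to a 39-nt exon of SPAG9 (6.44 points), with group means of 4.3, 11.8, 59.2 and 66.4% in EPI control, EPI knockdown, MES control and MES knockdown, followed by exons of MLPH and PPFIBP1. The MAP3K7 exon was closest to a 90-nt exon of CC2D1B (4.30 points, means 30.3, 22.1, 7.2 and 1.4%), then to exons of MMAB and CD44. An exon of ACIN1 was nearest to the MAP4K4 162-nt exon (2.96 points), one of HNRNPA2B1 to the 9-nt exon (2.26 points) and one of HMGCS1 to the 192-nt exon (3.65 points), with a 39-nt exon of the polarity gene PARD3 second (4.31 points). For the MARK3 45-nt exon the nearest was in SH3YL1 (3.69 points), for the MINK1 exon in TRIM68 (4.82 points) and for the MARK2 exon in SNHG8 (6.62 points). These distances describe likeness in the same 11 libraries and carry no test.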

How the data were processed

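Poly(A) RNA-seq covered 11 libraries of HMLE/Twist-ER cells, and eCLIP covered 2 AKAP8 replicates per state. The authors aligned the reads to GRCh37 with STAR and counted inclusion and skipping junction reads per annotated event with rMATS. The deposited fields join a group's libraries, in list order, so the reads were taken apart and names such as first-listed library follow that order. PSI was recomputed from the reads and effective lengths, and the 30 deposited PSI columns, the rMATS p-values and the authors' gene table of fold changes were not used. Events with a mean of at least 20 junction reads per library were tested for each comparison with a quasi-binomial F test, its dispersion moderated with limma 3.58.1 in R 4.3.3 (robust trend, never under 1, and taken from the trend under 10 reads of the rarer form), with Benjamini-Hochberg adjustment within event type over all genes, checked on simulated data. Adjusted p-values of splicing events are from this limma-based test unless another is named. Gene levels (reads summed over SE events, median-of-ratios scaling, at least 10 in 2 libraries) were tested with limma on log2(value + 1), and called at an absolute log2 fold change over 1 and adjusted p under 0.05. In the peak lists, the authors deposited each merged peak's log2 enrichment above input, and beside it a −log10 of its adjusted p. Exon, intron and transcript annotation was Gencode v44 on GRCh37, newer than the authors' version. Named are all exons and splice sites called in at least 1 comparison, the highest and the nearest peaks, and list genes past the threshold. The members, lists and tests were chosen with earlier results of these data known. Alternatives changed the read minimum, dispersion model, test, thresholds, scaling and libraries used. Reads given with an event are those behind its PSI, and counting error ignores PCR copies. For the called events given without reads, a library held 135 to 451 for the MARK3 45-nt exon and 105 to 568 for the MINK1 111-nt exon. In MAP4K4 a library held 314 to 919 for the 162-nt exon, 476 to 1174 for the 9-nt exon and 403 to 1143 for the 93-nt site.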

Additional observations from a re-analysis of the deposited data

Results flagged for a closer look

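In 2 exons, knockdown and control libraries did not overlap in either state, and knockdown lay above control in one state and below it in the other. How many exons of all genes show this pattern was not counted, so the 2 exons are no result about these genes. For the MARK2 162-nt exon the effect of knockdown in MES minus that in EPI was 26.74 points, from -12.7 points in EPI and 14.1 points in MES (first and second MES controls), and the interaction test gave an adjusted p of 0.735, so the difference between states was not called. The range of the 2 MES knockdown libraries, 36.7 and 49.1%, was wide, and they had the fewest reads of the 4 groups, 149 in sum. For the MAP4K4 9-nt exon the same difference was -8.62 points, from 4.04 points in EPI and -4.18 points in MES, also with an adjusted p of 0.735.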

How the results depend on the processing

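No paired analysis was possible because the deposited tables list a group's libraries in 1 field without replicate numbers. In EPI after knockdown, 1 member event was called, 2 with 1 dispersion prior for all events, 0 with limma on the logit of PSI and 0 with a ∆PSI cutoff of 20 points, and 0 to 1 when each library was left out, the call being lost without the first-listed knockdown library. In MES after knockdown, 0 were called, 3 with 1 dispersion prior, and 0 in every fit that left out a library. In EMT of control cells, 13 were called, 8 with limma on the logit and 7 with the 20-point cutoff, and 13 to 14 with a library left out. In EMT of knockdown cells, 8 were called, 0 with limma on the logit and 2 with the 20-point cutoff, and 4 to 8 with a library left out, the lowest without the second MES knockdown library. The cause of these differences was not tested, apart from the fewer events that a stricter cutoff leaves. The shares of all events called under these alternatives were not counted. With no fold cutoff, 2 member genes in place of 1 were called in EMT of control cells, and 1 with any library left out. Of 463 alternative values for single exons and splice sites 425 kept their direction and their status as called or not called. These 425 include values that were never called, so they do not measure how stable the calls were. Of the rest, 23 lost the call, 14 of them with limma on the logit of PSI, 3 gained one and 12 changed sign, none of them called. With each library left out in turn, the values that changed sign ranged, in points, from -3.53 to 0.59 for the MAP4K4 93-nt site after EPI knockdown (-0.93 with all libraries), from -0.39 to 0.71 for the MINK1 exon after EPI knockdown (0.08), from -0.72 to 1.24 for the MARK3 45-nt exon after MES knockdown (0.26), and from -0.26 to 4.21 (1.97) and from -1.84 to 3.01 (0.58) for 2 MARK3 MXE events after MES knockdown, the last of which also turned to -0.15 with all 3 MES controls. Of 280 gene-level values 277 kept direction and status as called or not called. That of MARK3 after MES knockdown (0.03 on the log2 scale) turned to -0.094 with scaling by total junction reads and ranged from -0.058 to 0.117 with a library left out. Requiring a log2 of at least 3 left 8 of the 12 peaks, all in EPI. The named exons had 0 peaks within 1000 or 500 nt. Exons with under 100 reads in a library, as in MARK2, have the least precise PSI.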
